A study of Mus musculus with 2 samples.

Results

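Germline genes known for silencing by DNA methylation outside the germ line were examined in mouse embryonic stem (ES) cells with and without induced CTCFL, a zinc finger protein of the testis that is related to CTCF. The set was a list of 10 named genes outside the meiotic chromosome axis and the piRNA pathway, Dazl, Tex101, Taf7l, Stk31, Dpep3, Tuba3a, Tuba3b, Brdt, Tex19.1 and Xlr. Genes were listed by name, and each entered by a probe set that the platform annotation gives to that symbol alone. All 10 were found, by 1 probe set each, among 19938 genes that could be named on the array. RNA came from G418-selected ROSA26-rtTA ES cells carrying a TRE-driven CTCFL-V5-GFP transgene, grown with leukemia inhibitory factor (LIF) on gelatin-coated plastic and read on Affymetrix Mouse Gene 1.0 ST arrays. The induced array held cells that had 3 days of doxycycline and were then selected for green fluorescent protein (GFP) by flow sorting. The non-induced array held cells of the same transgenic line with neither doxycycline nor sorting. The transgene sits behind a drug-responsive promoter in cultured cells, so the groups differ in drug, sort and CTCFL at once, and these cannot be told apart. With 1 array per group there was no spread between replicates, no test was possible, and every difference below describes these 2 arrays.

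In the mouse, most somatic cells keep such genes shut through methylated CpG dinucleotides (a cytosine followed by a guanine) around the start of transcription. The methyl groups are placed by the de novo enzymes DNMT3A and DNMT3B with their cofactor DNMT3L and are copied by DNMT1 with UHRF1. Before methylation is laid down, and in ES cells, a variant Polycomb complex (PRC1.6) that holds E2F6, MGA, MAX, L3MBTL2 and PCGF6 also represses many of them. Primordial germ cells lose the methylation and switch the genes on, and ES cells are known to transcribe a few of them, among these Tex19.1.

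The promoters are shown because the set is defined by their methylation. RefSeq windows of the GRCm38.p6 build, from 250 bases before to 50 bases after a transcription start, were found for all 10 genes, 11 windows in all since Stk31 has 2. The windows held 7 to 29 CpG dinucleotides, with a median of 17, against a median of 7 over the 32851 windows of all genes. Stk31 had the most, 29 in its first window, followed by Dazl with 28 and Brdt with 23. Xlr had the fewest, 7, the same as the median of all windows. The ratio of observed to expected CpG was highest for Taf7l, at 1.03, and lowest for Xlr, at 0.45, against 0.38 over all windows. The windows of Stk31 and Xlr, which bound the range of CpG number, and of the tubulin pair Tuba3a and Tuba3b, whose array values lay on opposite sides of 0, are printed 5′ to 3′ on the strand of the gene with CpG dinucleotides in capitals.
Stk31 (chr6:49395289-49395588, + strand): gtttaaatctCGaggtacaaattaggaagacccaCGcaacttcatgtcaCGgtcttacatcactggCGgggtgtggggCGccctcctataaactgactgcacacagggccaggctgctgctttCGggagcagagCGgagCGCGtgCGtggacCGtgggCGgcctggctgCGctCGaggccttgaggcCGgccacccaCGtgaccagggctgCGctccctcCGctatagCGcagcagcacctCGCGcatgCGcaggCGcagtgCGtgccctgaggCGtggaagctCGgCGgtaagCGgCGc
Xlr (chrX:53797657-53797956, - strand): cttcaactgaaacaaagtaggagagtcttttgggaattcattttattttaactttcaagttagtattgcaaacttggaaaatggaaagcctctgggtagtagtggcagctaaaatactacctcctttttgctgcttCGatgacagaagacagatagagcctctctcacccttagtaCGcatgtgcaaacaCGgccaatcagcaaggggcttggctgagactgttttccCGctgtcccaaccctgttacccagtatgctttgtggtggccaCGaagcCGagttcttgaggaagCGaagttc
Tuba3a (chr6:125286032-125286331, - strand): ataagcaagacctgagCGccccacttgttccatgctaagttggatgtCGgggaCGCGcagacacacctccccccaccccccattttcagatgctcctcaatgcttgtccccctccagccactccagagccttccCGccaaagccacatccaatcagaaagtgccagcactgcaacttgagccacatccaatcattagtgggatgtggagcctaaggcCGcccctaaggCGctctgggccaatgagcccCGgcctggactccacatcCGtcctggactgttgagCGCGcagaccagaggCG
Tuba3b (chr6:145615713-145616012, + strand): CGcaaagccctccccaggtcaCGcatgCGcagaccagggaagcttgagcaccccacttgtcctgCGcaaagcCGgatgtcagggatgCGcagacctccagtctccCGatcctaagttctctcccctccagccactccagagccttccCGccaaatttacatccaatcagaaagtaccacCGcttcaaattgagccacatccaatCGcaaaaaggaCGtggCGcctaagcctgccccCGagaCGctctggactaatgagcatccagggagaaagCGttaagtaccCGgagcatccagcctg

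**Figure D1:**
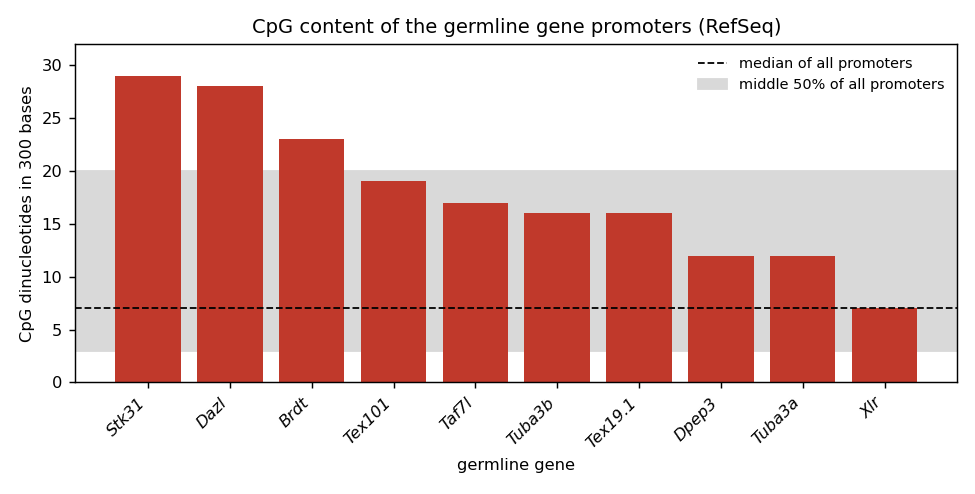
Number of CpG dinucleotides (y axis) in the 300-base RefSeq promoter window of each of the 10 genes (x axis, first window of Stk31), beside the median (dashed line, 7) and the middle 50% (grey band, 3 to 20) of all windows. Stk31, Dazl and Brdt lie above the band, and Xlr lies on the median.

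Short motifs of the factors named above were searched on both strands of these windows. TCCCGC, the core of the E2F6 motif, was found in 4 of the 10 genes (Tuba3a, Tuba3b, Tex19.1 and Xlr), and it occurs in 20.0% of all windows. The 5′-most base of the match lies at -119 from the start in Tuba3a, -106 in Tuba3b, -33 in Tex19.1 and -25 in Xlr. The E-box CACGTG, which MGA and MAX bind, was found in 3 genes (Stk31, Taf7l and Brdt), against 7.15% of all windows. It lies at -55 from the start in the first Stk31 window, -49 in Taf7l and -78 in Brdt. AGNNGGC, a core of the motif shared by CTCF and CTCFL, was found in 5 genes (Dazl, Tex101, Dpep3, Brdt and Tex19.1), against 59.8% of all windows. No match to one motif overlapped a match to another in the windows of these genes. The E2F6 match of the tubulin pair lies in the longest run that their windows share, 33 bases at positions 109 to 141 of the Tuba3a window and 122 to 154 of the Tuba3b window, counted from 1 at the 5′ end. TCCCGC and CACGTG each hold a CpG, and the windows of these genes are richer in CpG (median 17, against 7 over all windows). The shares of all windows are not matched for CpG, so no excess of matches is read from them. A match is a string of letters and does not show that a factor binds there.

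The arrays were first checked against their labels. Ctcfl was at a log2 signal of 9.44 on the induced array and 5.99 on the non-induced array, 10.9-fold higher and the widest upward difference of all 19938 genes, and Ctcf was at 8.66 induced and 8.93 non-induced. All 10 ES cell markers examined, Pou5f1 and Nanog among them, had log2 signals between 8.68 and 13.2 on the induced array and between 8.44 and 13.0 on the non-induced array. Their differences, induced minus non-induced, had a median of -0.009 and ran from -0.46 for Zfp42 to 0.24 for Klf4, with 6 below 0. Of 8 fibroblast markers 7 were higher on the induced array, with a median difference of 0.41, a range of 3.33 to 7.63 on the induced array and 3.16 to 7.22 on the non-induced array, and a summed linear signal of 675 induced and 509 non-induced. The differences were 0.72 for Pdgfrb, 0.53 for Col3a1, 0.47 for Col1a2, 0.42 for Col1a1, 0.41 for Thy1, 0.17 for Lum, 0.04 for Postn and -0.28 for Dcn. Median differences were 0.26 for 6 endoderm markers, 0.03 for 4 of mesoderm, 0.13 for 4 neural ones, 0.19 for 5 of trophoblast and 0.02 for 6 of Sertoli cells and spermatids. The part of such cells in the differences below was not tested. Across all genes the middle 50% of differences, induced minus non-induced, ran from -0.24 to 0.26 and the central 95% from -0.86 to 0.77 on the log2 scale. The log2 signal of a probe set is on a scale of its own, so values are compared between arrays and not between genes. The median of all gene values, 6.36, serves as a floor for dim genes.

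Most of the germline genes were dim on both arrays. On the induced array 2 of the 10 reached the floor (Tex19.1 and Tuba3a), and on the non-induced array 3 did (these and Stk31). The remaining 7 stayed under it on both. The floor is a filter on dim signals and does not tell a silent gene from an active one. The difference was negative for 7 genes and positive for 3, and it was negative for 48.6% of all genes. Of the 7 genes under the floor on both arrays 4 were negative (median -0.18). Of all genes under the floor on both arrays 43.1% were negative (median 0.06). Over the set it ran from -1.30 to 0.53 (median -0.22, against 0.01 over all genes). At a size of log2 1, a 2-fold difference, with the floor, 1 of the 10 genes (Stk31) was lower and 0 were higher on the induced array. Only 3 of the 10 reached the floor on either array and could be counted. Of the 10697 genes at or above the floor, 1.79% were lower and 0.477% higher by that size. Those shares stand for 191 genes lower and 51 higher, which became 268 and 25 with each array centred on its median and 108 and 10 with a constant of 32 added to linear signals. Without the floor the counts were again 1 and 0, against 1.49% of all genes lower and 0.707% higher. A count of 1 in so short a list is not read as a property of the set.

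**Figure D2:**
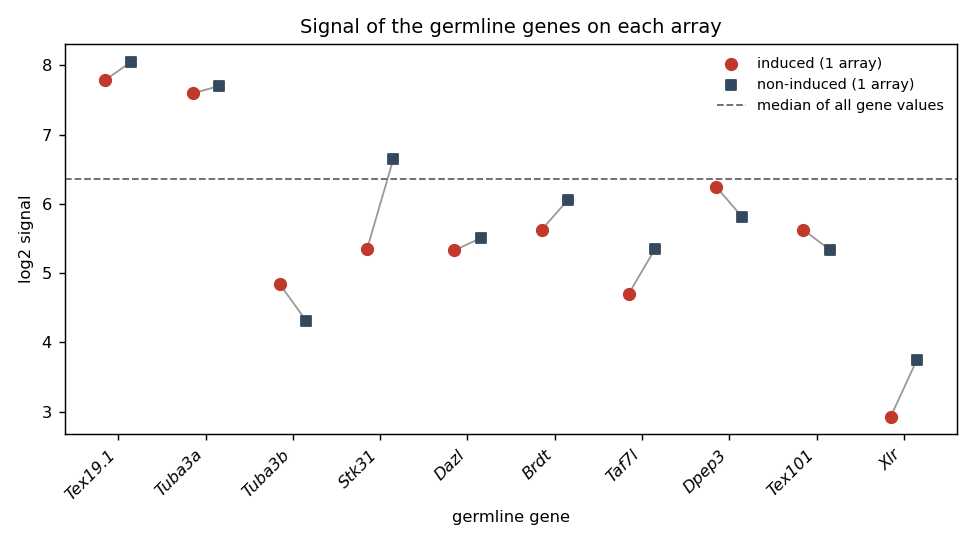
Log2 signal (y axis) of each of the 10 genes (x axis) on the induced array (circles) and the non-induced array (squares), 1 array each, joined by a line, with the median of all gene values dashed (6.36). Stk31 shows the widest gap (5.35 induced, 6.64 non-induced), and Tex19.1 and Tuba3a lie above the dashed line on both arrays.

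Stk31 differed by more than 2-fold and Dazl hardly. Stk31, which encodes a protein with a Tudor domain and a kinase-like domain found in spermatogonia and spermatocytes, was at 5.35 on the induced array and 6.64 on the non-induced array. The difference of -1.30, 2.46-fold lower on the induced array, ranked 98 from the lowest of 19938. Stk31 was thus under the floor on the induced array and above it on the non-induced array. Its first promoter window, printed above, is also the one richest in CpG. Dazl, with 28 CpG dinucleotides, differed by -0.18, and Xlr, with 7, by -0.82. A relation of CpG number to the differences was not tested. The 500 genes closest to Stk31 in mean level spanned -0.87 to 0.95 in their central 95%, and Stk31 was the 1 gene of the 10 that lay outside the range of its own neighbours in level. A central 95% leaves some genes outside by construction, so this count is not read as a result. After adding the constant of 32, which damps differences of dim genes, the difference of Stk31 was -0.86 and no longer reached log2 1. In bulk RNA, fewer cells with the transcript and less transcript per cell cannot be told apart.

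Dazl encodes an RNA-binding protein that promotes translation of germ cell transcripts and is needed for germ cells to develop. It was at 5.33 on the induced array and 5.50 on the non-induced array, a difference of -0.18 within the -0.72 to 0.87 spanned by genes of like level. Its paralog Boll, a germ cell gene of the same family, was at 5.04 induced and 5.05 non-induced. Both genes were thus under the floor and nearly level between the arrays.

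The chromatin and transcription genes were all lower on the induced array, none of them by log2 1. Brdt, the testis member of the bromodomain family that reads acetylated histones, was at 5.63 on the induced array and 6.06 on the non-induced array (-0.43). Its broadly expressed relatives were at 8.84 induced and 9.07 non-induced for Brd2 (-0.23) and at 7.46 induced and 7.37 non-induced for Brd3 (0.10). Taf7l, the germ cell form of a subunit of the general transcription factor TFIID, was at 4.71 on the induced array and 5.35 on the non-induced array (-0.65). The ubiquitous form Taf7 was at 8.55 induced and 8.71 non-induced (-0.16) and Taf7l2 at 5.09 induced and 5.01 non-induced (0.08). Of these groups of relatives, each testis form had the lower difference, but the values of Brdt and Taf7l lay within the ranges of genes of like level (-0.68 to 0.82 and -0.79 to 0.82).

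Xlr, an X-linked gene related to the synaptonemal complex gene Sycp3, was far under the floor. Its log2 signal was 2.93 on the induced array and 3.75 on the non-induced array. The difference of -0.82 lay within the -1.08 to 0.72 of genes of like level and shrank to -0.20 with the constant added. Several related genes had wider differences. Sycp3 itself was at 5.35 on the induced array and 7.18 on the non-induced array (-1.83). The 3 probe sets that the annotation gives jointly to Xlr3a, Xlr3b and Xlr3c were at 5.15, 5.65 and 4.89 on the induced array, against 7.03, 7.22 and 6.88 on the non-induced array, with differences of -1.98 to -1.57. All 3 were under the floor on the induced array and above it on the non-induced array. Those given jointly to the Xlr4 genes differed by -0.68 to -0.63 and those given to the Xlr5 genes by -0.21 and 0.16. Joint probe sets cannot be assigned to 1 gene, and the sets within a family may read the same transcripts.

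Xlr and Taf7l are the X-linked genes of the set. Their differences, -0.82 and -0.65, were the lowest after that of Stk31. Over the 739 named genes of chromosome X the median difference was -0.07, with 56.3% below 0, against 0.01 and 48.6% over all genes. At or above the floor, which Xlr and Taf7l do not reach, the median of 305 X-linked genes was -0.18, with 66.9% below 0. All genes at or above the floor had a median of -0.03, with 53.4% below 0. The 8 autosomal genes of the set had a median of -0.14, with 5 below 0.

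The tubulin pair differed in sign. Tuba3a and Tuba3b encode alpha-tubulins of the testis, which form microtubules with beta-tubulin. Tuba3a was at 7.59 on the induced array and 7.70 on the non-induced array (-0.11). Tuba3b was at 4.84 on the induced array and 4.32 on the non-induced array (0.53), under the floor on both. With the constant added, the difference of Tuba3b was 0.22. Of the other alpha-tubulin genes, Tuba1a was at 12.2 induced and 11.9 non-induced (0.24), Tuba4a at 9.95 induced and 10.3 non-induced (-0.35), Tuba8 at 6.75 induced and 6.33 non-induced (0.42) and Tubal3 at 4.90 induced and 4.48 non-induced (0.42). The 4 probe sets given jointly to Tuba1 genes differed by 0.03 to 0.12. The genes are close copies, and how far their probe sets read each other was not examined.

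The cell surface genes lay above 0. Tex101 encodes a GPI-anchored glycoprotein of male germ cells, and Dpep3 a testis dipeptidase that is found in a complex with it. Tex101 was at 5.62 on the induced array and 5.34 on the non-induced array (0.28). Dpep3 was at 6.25 on the induced array and 5.81 on the non-induced array (0.44). Both lay under the floor and within the ranges of genes of like level (-0.63 to 0.85 and -0.88 to 0.93). Ly6k, whose product binds TEX101 in testis, was at 7.54 on the induced array and 6.70 on the non-induced array (0.84). Of the other surface proteins of that family, Plaur was higher by 0.67, Lypd5 by 0.27 and Lypd3 by 0.20, while Lypd4, a sperm gene, differed by -0.22. Dpep1, the kidney dipeptidase gene, was higher by 0.71, and Dpep2 was at 6.39 on the induced array and 7.02 on the non-induced array (-0.62) by the probe set used, and at 5.09 induced and 4.96 non-induced (0.13) by its other one. None of these reached log2 1.

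Tex19.1 was above the floor on both arrays and was slightly lower on the induced array. It encodes a mammal-specific protein of germ cells, placenta and pluripotent cells that restrains retrotransposons. Its log2 signal was 7.79 on the induced array and 8.05 on the non-induced array. The difference of -0.26 lay within the -0.90 to 0.55 of genes of like level. Its tandem paralog Tex19.2 was at 5.76 induced and 5.80 non-induced (-0.04).

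**Figure D3:**
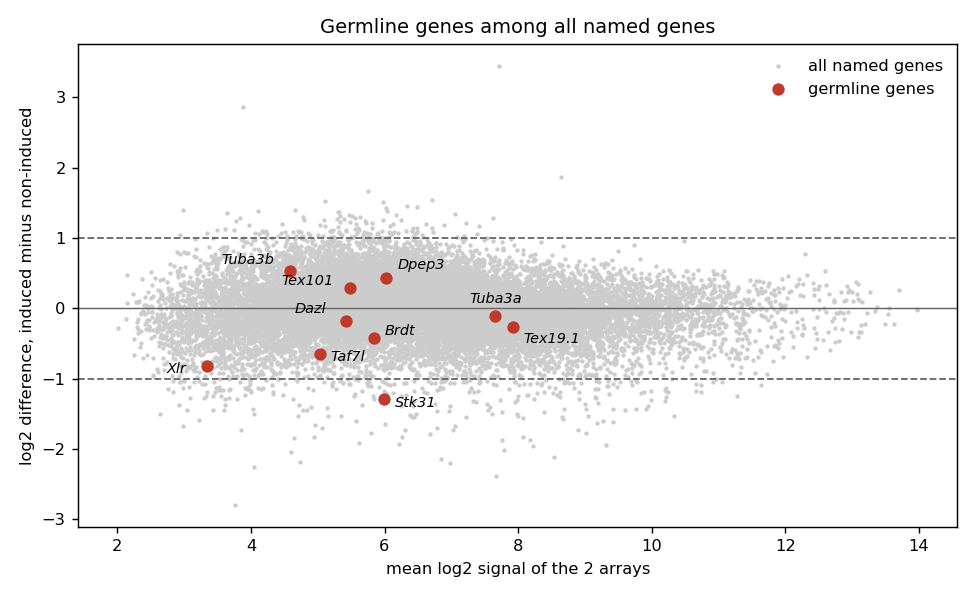
Log2 difference, induced minus non-induced (y axis), against the mean log2 signal of both arrays (x axis) for all 19938 named genes (grey) and the 10 germline genes (red, named), with dashed lines at log2 1 up and down. Stk31 is the 1 named gene past a line, at -1.30, and most others lie inside the grey cloud on the dim side.

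**Figure D4:**
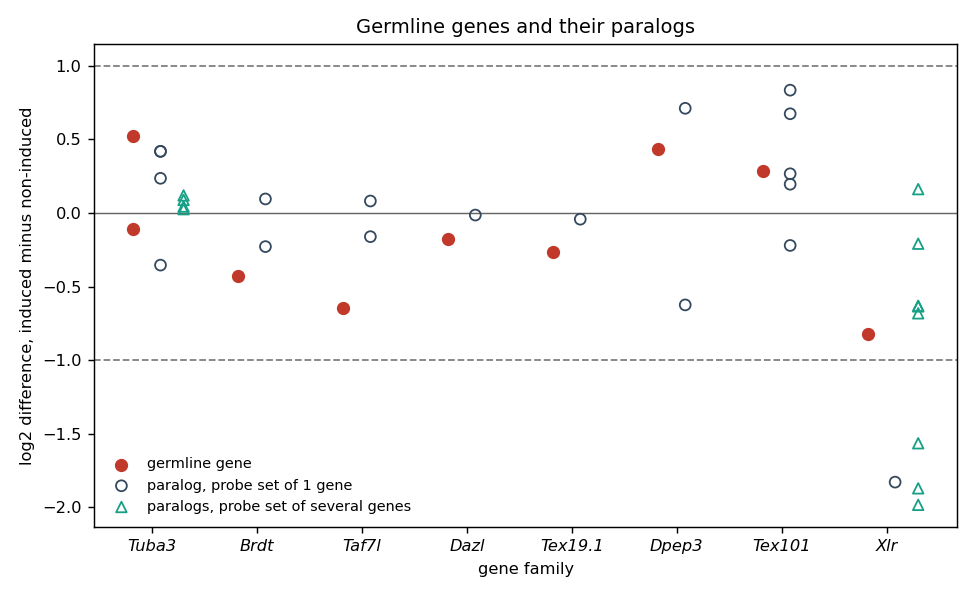
Log2 difference, induced minus non-induced (y axis), of the germline genes (filled circles) and their paralogs by family (x axis), from probe sets of 1 gene (open circles) and of several genes (triangles), with dashed lines at log2 1. In the Xlr family Sycp3 (-1.83) and the 3 Xlr3 probe sets (-1.98 to -1.57) lie lowest, and no paralog in the other families passes a dashed line. Stk31 has no paralog in the lists and is not drawn.

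Other germline genes under related control were set beside the list. All of these comparisons use the same 2 arrays, and the values are placed side by side without a test. Of all genes 48.6% were below 0, and of those at or above the floor 53.4%. Of 12 measured genes of the meiotic chromosome axis 9 were below 0, with a median of -0.33. Of the 8 at or above the floor, 2 were lower and 1 higher by log2 1, against 1.79% lower and 0.477% higher of all genes at or above it. Sycp3 was at the values above, Sycp1, which encodes its partner in the synaptonemal complex, was at 4.77 on the induced array and 6.37 on the non-induced array (-1.60), and the axis gene Hormad2 was at 6.01 induced and 6.86 non-induced (-0.86). Rec8, the meiotic cohesin subunit, went the other way at 7.73 on the induced array and 6.38 on the non-induced array (1.35). The cohesin gene Rad21l turned in sign with the probe set, 0.15 by the one used and -0.48 by its other one. Stk31, Sycp1, Sycp3, Hormad2 and the cohesin gene Stag3 were each under the floor on the induced array and above it on the non-induced array. The same held for Mael, Tex14 and Tex15 of the lists that follow, while the paralogs Tuba8 and Lypd5 crossed the other way. Some crossings were narrow, as for Sycp1, at 6.37 on the non-induced array. How many of all genes crossed the floor was not counted, so these crossings are not read as a shared trait.

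The piRNA pathway protects the germ line from transposons by small RNAs, and its genes were spread about 0. Of 17 measured, 8 were below 0, the median was 0.20 and the mean 0.01. Tdrd12, which encodes a Tudor protein of this pathway, was at 6.81 on the induced array and 7.99 on the non-induced array (-1.18). It was the 1 gene of the list past log2 1, with 5 of the 17 at or above the floor, against the same shares of all genes at or above it. The difference was -0.57 for Mael, a gene of the germ granule, 0.55 for the Tudor protein gene Tdrd7 and 0.49 for the RNA helicase gene Mov10l1. Of 9 other germ cell genes 6 were below 0 (median -0.01), against 48.6% of all genes. There the difference was -0.95 for the X-linked meiosis gene Tex11, -0.63 for Tex15, which male meiosis needs, and 0.50 and 0.39 for the oocyte transcription factor genes Figla and Nobox. Of 9 genes of primordial germ cells 6 were below 0 (median -0.14), against the same share of all genes. In that list Dppa3, a marker of primordial germ cells and naive ES cells, was at 7.16 on the induced array and 8.99 on the non-induced array (-1.83, and -1.84 by its other probe set). The difference was -0.54 for the RNA-binding protein gene Nanos3, 0.51 for the RNA-binding protein gene Dnd1 and -0.34 for Prdm14, a transcriptional regulator of germ cell fate.

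The genes that place or maintain the methylation were below 0 in all 6 examined, against 53.4% of all genes at or above the floor. None reached log2 1. Uhrf1 (9.72 induced, 9.75 non-induced, -0.03) lay above 0 after quantile normalization or after removal of the level trend by lowess. Dnmt3l, the cofactor of de novo methylation, was at 8.80 on the induced array and 9.64 on the non-induced array (-0.84). Hells, a chromatin remodeler needed for methylation, was at 10.5 induced and 11.0 non-induced (-0.54), Dnmt3b at 7.42 induced and 7.94 non-induced (-0.51), and Dnmt3a at 8.26 induced and 8.39 non-induced (-0.14). Over the 6 the median was -0.32, and -0.24 after lowess. The share of all genes at or above the floor is not matched for signal level. Of 5 measured demethylation genes 2 were below 0, with differences of -0.38 for Tet1 and -0.35 for Tet2, which oxidize methylated cytosine, and 0.26 for Gadd45b and 0.20 for Gadd45a. The other 2 probe sets of Tet1 differed by -0.60 and -0.35. For Tet3 the sign turned with the probe set, 0.13 by the one used and -0.36 by its other one.

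The repressors that act through chromatin were also mostly below 0. Of 18 genes of PRC1.6 and of histone modifiers that silence germline genes, 15 had a negative difference, and none reached log2 1 (median -0.23). The number was 15 to 17 under the scaling alternatives. Over all genes at or above the floor, 53.4% were below 0, with a median of -0.03. That share is not matched for signal level, and the median of the 18 was -0.17 after lowess. Mga, the scaffold of PRC1.6, was at 7.77 on the induced array and 8.33 on the non-induced array (-0.57). Tfdp1, the partner of E2F6, was at 10.1 induced and 10.5 non-induced (-0.48, and -0.26 by its other probe set), the ubiquitin ligase gene Rnf2 at 9.31 induced and 9.75 non-induced (-0.44) and Cbx3 at 10.9 induced and 11.3 non-induced (-0.43, and -0.60 to -0.40 by 6 other probe sets, of which 2 hold the same values). All 18 were above the floor on both arrays. These arrays do not measure methylation, and the part of writers and repressors in the values of the 10 germline genes was not tested.

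**Figure D5:**
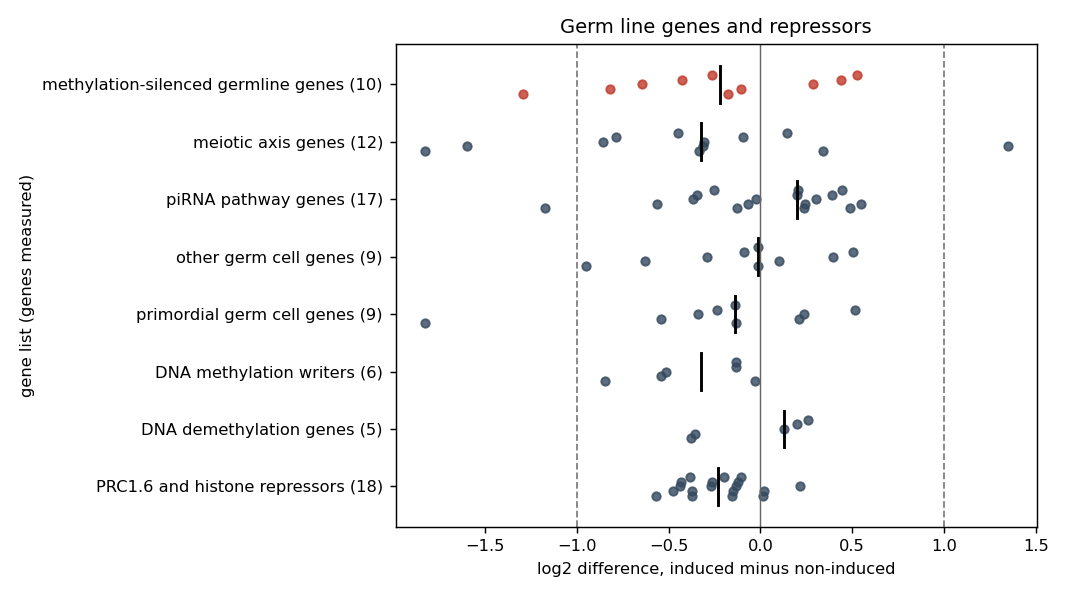
Log2 difference, induced minus non-induced (x axis), of each measured gene (points) in the germline list and in 7 other lists (y axis, number of genes in brackets), with the median of each list as a black bar and dashed lines at log2 1. The 6 methylation writers lie below 0 as deposited (median -0.32), with Uhrf1 above 0 after quantile normalization or lowess, while the germline genes (median -0.22) spread from -1.30 to 0.53.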

How the data were processed

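The authors made labelled target (single-stranded DNA per the methods, cRNA per the labels) from 300 ng of RNA for each of 2 groups and hybridized 1 array a group. The deposited values are log2 signals, 1 per probe set, which the authors computed by RMA (robust multi-array average: background correction, quantile normalization and summary of probes). The log2 unit was taken from the value range, 1.36 to 14.5. RMA damps differences of dim genes. For software versions and the array's genome build, none was given in the sources used here.

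GEO's platform annotation supplied gene names. Of 35557 probe sets, 21789 had 1 symbol, 1621 several and 12147 none. Of the 21789, 21698 matched RefSeq (GRCm38.p6) by gene identifier. A gene with several probe sets was given the one with the highest mean. Whether all probe sets that the annotation gives to a gene read the same locus was not examined. Numbers of arrays, not depth, limit precision, and no replicate spread exists. Genes were counted at log2 1 with the higher value at or above the median of gene values (6.36). Named were all list members, all measured paralogs, and in other lists at most 4 genes with the widest difference. Uhrf1, Tet3, Rad21l, Stag3, Tex14 and the single marker genes were named after their values were seen. Some listed genes were not analysed here. The members and lists were chosen with earlier results of these data known. Steps were tested on simulated data. Alternatives covered scaling, level trend, a linear constant, probe set choice, size and floor. Python 3.11.15, numpy 2.4.6, pandas 2.3.3, statsmodels 0.14.6 and matplotlib 3.10.9 were used.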

Additional observations from a re-analysis of the deposited data

How the results depend on the processing

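All 60 values of the 10 germline genes under 6 alternatives (centring, quantile normalization, lowess, a constant of 32, mean of probe sets, dimmest probe set) kept the sign given above. Each gene has 1 probe set, so both choices of probe set left its value as it was. Stk31 ranged from -1.43 to -0.86, Xlr from -0.92 to -0.20, Taf7l from -0.74 to -0.33 and Tuba3b from 0.22 to 0.55. The end nearest 0 came with the constant in each of these 4. The median over the genes lay between -0.32 (centring, which moved the median of all genes to -0.09) and -0.15 (constant). The mean of the genes was -0.25, and the median was -0.26 with Tuba3a and Tuba3b taken as 1 gene or with genes above the floor only. The number of genes lower by log2 1 was 0 with the constant and 0 with a floor at the 75th percentile, which Stk31 does not reach. It was 1 under the other alternatives at that size. The number higher was 0 under all of them, including a size of log2 0.58. At log2 0.58, 1 of the 3 germline genes at or above the floor was lower, against 8.45% lower and 5.31% higher of all genes at or above it. Taf7l (-0.65) and Xlr (-0.82) pass log2 0.58 but lie under the floor. Over all genes 51 were higher and 191 lower, against 25 and 268 with centring and 10 and 108 with the constant. No replicate could be left out and no spread estimated with 1 array per group. No paired analysis was possible because each group has 1 array. Dim signals limit what 7 of the 10 genes can show.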

Other observations

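Genes next to the germline genes in the RefSeq order were not part of any list, apart from Dpep2, Lypd3 and Tex19.2. Of 17 such protein-coding neighbours with a named probe set 8 were below 0, with a median difference of 0.04, induced minus non-induced. Npy, the neuropeptide Y gene that follows Stk31, was at 6.41 on the induced array and 5.71 on the non-induced array (0.71), and Fam221a, which precedes Stk31, was at 5.93 induced and 6.02 non-induced (-0.09). Neither neighbour shared the low value of Stk31. Timm8a1, a mitochondrial import gene beside Taf7l, was at 9.35 on the induced array and 10.3 on the non-induced array (-0.93), while Drp2 on the other side was at 5.56 induced and 5.25 non-induced (0.31). Plcl2, beside Dazl, was at 7.15 on the induced array and 6.24 on the non-induced array (0.91). These neighbours were named after their values were seen.

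Hormad1, another germline gene of the meiotic axis, differed between its probe sets. It was at 7.38 on the induced array and 8.16 on the non-induced array (-0.79) by the probe set with the higher mean, and at 4.98 induced and 7.20 non-induced (-2.22) by the other. The annotation gives both probe sets to Hormad1, and whether both read its transcript was not examined. Hormad1 was named after its values were seen.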
